A study of Mus musculus with 8 samples.

Results

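Trained Cav3.2 knockout mice (KTL) were compared with naive knockout mice (KNL) in the left hippocampus, on 4 of the 8 arrays analysed. The 4 arrays were taken by their labels, 2 for KTL and 2 for KNL, and every probe with a value on all 8 arrays was used. KTL mice carried a homozygous deletion of Cav3.2, had been trained in trace fear conditioning, in which a tone, an empty interval and a foot shock follow each other, and were tested for contextual memory in the same chamber on the next day. KNL mice carried the same deletion and were not trained. The trained and naive wild-type groups WTL and WNL, with 2 arrays each, were used for comparison. The labels give C57BL/6 males of 6 to 8 weeks for every group, where the study's methods name C57BL/6J for the wild type, and the left hippocampi of 3 mice were pooled for an RNA sample. The tissue of trained mice was taken right after the memory test, so that training, recall and handling cannot be told apart, and no group received the tone, the chamber or the shock alone. The sources do not say whether the 2 arrays of a group held separate pools of animals, so the p-values measure the spread between arrays, which may be technical. Because a hippocampus was taken whole, fewer cells of a type and less RNA per cell cannot be told apart in any of the differences below.

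Cav3.2, encoded by Cacna1h, is the pore-forming subunit of a T-type calcium channel, which opens at voltages close to the resting potential and supports burst firing and low-threshold calcium entry. Trace fear conditioning depends on the hippocampus because the animal has to bridge the interval between tone and shock. Memory formation in this tissue is accompanied by transcription of immediate early genes, by remodeling of synapses and by protein synthesis and degradation.

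Intensities are given after a floor of 100 and quantile normalization, as the authors' methods describe, and a difference is KTL minus KNL on the log2 scale with the standard error of limma after the ± sign. A change was called where its Benjamini-Hochberg adjusted p lay under 0.01 and it exceeded 2-fold. "Rose" and "fell" are used for called changes only. The test for a training effect that differed between genotypes was the interaction term, KTL minus KNL less WTL minus WNL, in the same fit.

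The KNL arrays stood apart from the other 6. Pearson's r of log2 values across probes was 0.993 between the KTL arrays and 0.985 between the KNL arrays, whereas a KTL array and a KNL array correlated at 0.86 to 0.918 and a KTL array and a wild-type array at 0.968 to 0.985. The first principal component, with 76.2% of the variance, held the KNL arrays at 69.3 and 91.2, the KTL arrays at -26.4 and -36.1, and the wild-type arrays between -40.5 and -2.92. The median difference between the 2 arrays of a group was 0.128 in KTL and 0.173 in KNL on the log2 scale. Each difference below is computed from both the KTL and the KNL arrays, and calls lost without a single array of either group are marked as such. In these differences a property of the KNL pools or arrays cannot be told apart from an effect of training. Cacna1h itself read 1171 and 1395 on the KTL arrays, against 1929 and 1377 on the KNL arrays, and 2836 and 1838 in WTL and 2732 and 2985 in WNL. Its signal was thus present on all knockout arrays, and the KTL and KNL ranges overlapped (-0.35 ± 0.25, adjusted p = 0.262). The position of the probe relative to the deleted part was not given in the sources used here, so that the probe does not check the genotype.

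After training, 2088 of 16588 probes rose (12.6%) and 1244 fell (7.5%) in the knockout. By genes, each taken at its brightest probe, 1434 of 11136 rose (12.9%) and 792 fell (7.11%), and these shares are the background for every gene group below. The median change over all genes was -0.08. The same contrast in the wild type, WTL vs WNL, gave 0 calls by limma, with 2506 probes at an unadjusted p under 0.05, against 10824 in KTL vs KNL. The training effect differed between genotypes at 2207 probes upward (13.3%) and 1403 downward (8.46%), and by genes at 13.7% upward and 8.24% downward. These contrasts share the KTL and KNL arrays, so the interaction counts are no independent evidence of the changes in the knockout. With each of the 8 arrays left out in turn, 732 of the 2088 risen probes and 64 of the 1244 fallen probes were called in every fit. Without KTL 1, KTL 2, KNL 1 and KNL 2, in that order, the rises numbered 1058, 841, 1652 and 953 and the falls 258, 89, 601 and 114. The interaction gave 234 upward and 7 downward calls without KTL 2 and 719 and 195 without WNL 2, and of the 184 named genes with such a call 24 kept it in all 8 fits. Counts without 1 array are given in this order below, and arrays whose omission ended the call of a gene are named with it.

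Calls depended on brightness. With the probes ordered by mean intensity into 10 bins of equal size, 0.0603% of the dimmest bin rose and 3.07% fell. In the fifth bin, with a mean intensity of 394, 19% rose and 10.6% fell. Of the brightest bin, 8.92% rose and 1.87% fell. The median change was -0.27 in the second bin and -0.02 in the brightest. Probes without a gene symbol, 3405 of them, rose in 9.78% and fell in 10.7% of cases.

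**Figure D1:**
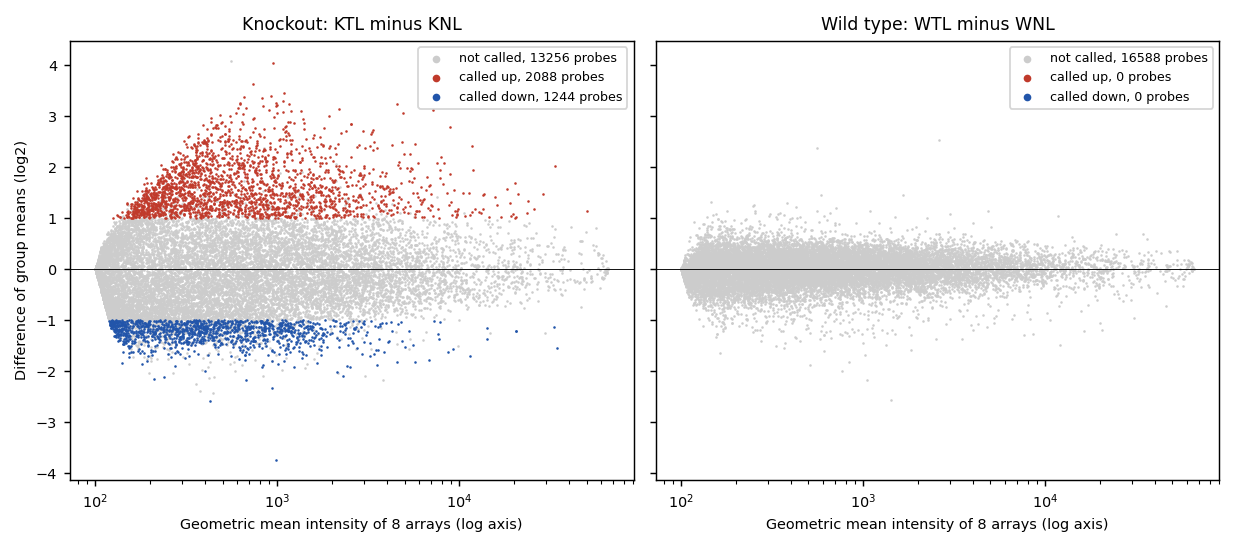
Difference of group means (log2) against the geometric mean intensity of 8 arrays (log axis), 1 point per probe, for KTL vs KNL and for WTL vs WNL, with called probes colored. In the knockout 2088 probes were called up and 1244 down, and in the wild type none was called. Of the dimmest bin of probes 0.0603% rose and 3.07% fell.

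For the genes that rose, KTL was close to the wild-type level more often than KNL. Over the 1434 risen genes, the KTL mean lay inside the range of the 4 wild-type arrays in 822, below it in 191 and above it in 421. The KNL mean lay below that range in 1416. Over the 792 fallen genes, the KTL mean lay inside the wild-type range in 458, below it in 326 and above it in 8, and the KNL mean lay above it in 785. These genes were chosen by the KTL and KNL values that are counted here, so the counts are descriptive. Set directly against the wild type, the trained knockout differed from WTL at 4 probes, all lower (0.0241%), and from WNL at 1 higher and 6 lower probes. Mrps6 and Kcne2 were lower than in both wild-type groups, and Folr1, Lemd2 and Ecrg4 were lower than in WNL.

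The largest rise was that of Nlk, a serine/threonine kinase of the Wnt and Notch pathways. Its brightest probe read 1329 and 3247 on the KTL arrays, against 153 and 103 on the KNL arrays, and 2199.8 and 965 in WTL and 1949 and 2287 in WNL. The KNL arrays lay below all 6 others. The change was 4.05 ± 0.52, adjusted p = 0.00159, and the call was lost without KTL 2, KNL 1 or KNL 2 (adjusted p up to 0.0235). Acsl4, which activates arachidonic acid for phospholipid synthesis, read 1282 and 1482 on the KTL arrays, against 124 and 100 on the KNL arrays, with 994 and 1622 in WTL and 1386 and 1672 in WNL. Its KTL arrays lay within the wild-type span and its KNL arrays at or next to the floor (3.63 ± 0.25, adjusted p = 0.000287). These readings are of its brightest probe. Its dimmer probes were not called, with changes of 0.82, 0.72 and 0.005, the last at or next to the floor on all arrays. Snx1, a sorting nexin of the retromer on endosomes, read 1331 and 1561 on the KTL arrays, against 131 and 142 on the KNL arrays, a difference of 3.40 ± 0.13, adjusted p = 0.00018. Its wild-type arrays read 1547 and 1764 in WTL and 2173 and 2246 in WNL, above the KTL arrays in WNL and about level with them in WTL. Pccb, a subunit of the mitochondrial propionyl-CoA carboxylase, read 1112 and 1297 on the KTL arrays, against 124 and 109 on the KNL arrays (3.37 ± 0.23, adjusted p = 0.000269). All 4 of these genes also passed the interaction test, at 4.58 for Nlk, 3.89 for Acsl4, 3.82 for Snx1 and 3.67 for Pccb. The interaction call was kept in all 8 fits for Snx1, and it was lost for Nlk without any single knockout array, either WNL array or WTL 2 (adjusted p up to 0.0311) and for Acsl4 and Pccb without KTL 2 or KNL 2 (adjusted p up to 0.0115).

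Of the 15 largest rises, which ran from 3.11 to 4.05, 3 were genes of ubiquitin ligation, picked out after the values were seen. Pja1, a RING-type ubiquitin ligase expressed in brain, read 2435 and 2034 on the KTL arrays, against 255 and 216 on the KNL arrays (3.24 ± 0.18, adjusted p = 0.000198). Ube2e2, a ubiquitin-conjugating enzyme, read 1122 and 1096 on the KTL arrays, against 155 and 100 on the KNL arrays (3.15 ± 0.22, adjusted p = 0.000292), with 1 KNL array at the floor. Rnf7, the RING subunit of cullin-based ligases, read 1999.7 and 2037 on the KTL arrays, against 228 and 183 on the KNL arrays (3.30 ± 0.29, adjusted p = 0.000515), and its call was lost without KNL 2 (adjusted p up to 0.0103). KTL and KNL did not overlap in any of these genes, which their choice among the largest called rises made likely. Atp5g3, which encodes the c subunit of the ATP synthase ring, was bright on every array, at 12806 and 14419 on the KTL arrays, against 1666 and 1485 on the KNL arrays (3.11 ± 0.13, adjusted p = 0.00018). Med28, a subunit of the Mediator complex that links transcription factors to RNA polymerase II, read 2338 and 2359 on the KTL arrays, against 298 and 249 on the KNL arrays (3.11 ± 0.13, adjusted p = 0.00018). Zfp365, Cdc5l and Ttc13 completed the list beside Gap43, Hsp90aa1 and Npc2, with changes of 3.21, 3.16, 3.25, 3.46, 3.24 and 3.22 in that order. Ttc13 lost its call without KNL 2 (adjusted p up to 0.0103). For 11 of the 15 the KTL mean lay inside the wild-type range, and for all 15 the KNL mean lay below it.

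**Figure D2:**
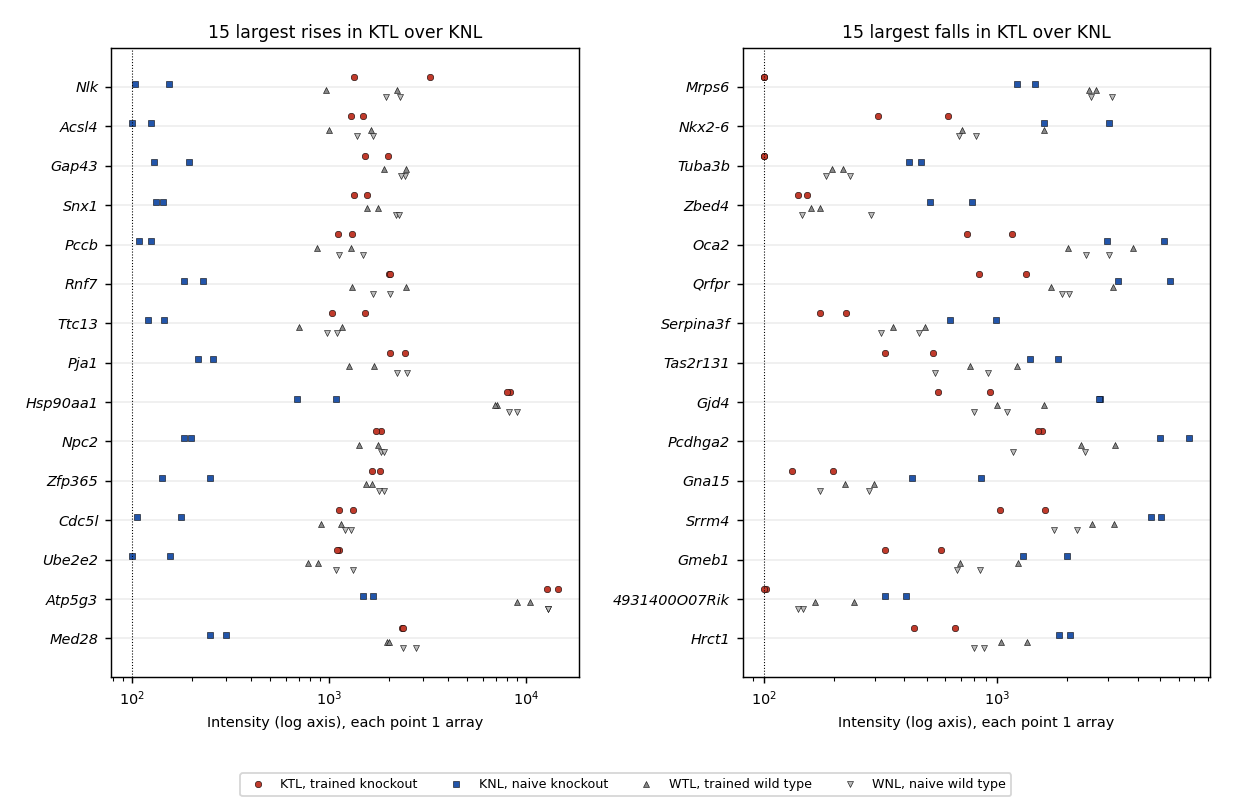
Intensity (log axis) of the 15 genes with the largest rise (left) and the 15 with the largest fall (right) in KTL over KNL, each point 1 array of KTL, KNL, WTL or WNL and the dotted line the floor of 100. Among the rises the KNL points lie left of all others, whereas among the falls the KNL mean lies above the wild-type range in 14 of 15, and Mrps6 has its KTL points at the floor.

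The falls were smaller, from -1.85 to -2.33 in 14 of the 15 largest, and only Mrps6 exceeded them. Mrps6, a protein of the small mitochondrial ribosomal subunit, was at the floor on both KTL arrays, against 1221 and 1449 on the KNL arrays, at least 13.3-fold lower (adjusted p = 0.00018). Its wild-type arrays read 2649 and 2471 in WTL and 3112 and 2518 in WNL, so that KNL lay below the wild type and KTL below KNL. Tuba3b, a testis-enriched alpha-tubulin, was likewise at the floor in KTL, against 469.5 and 420.1 in KNL, and read 219 and 196 in WTL and 233 and 185 in WNL. It was at least 4.44-fold lower in KTL (adjusted p = 0.000258). These were the only 2 of the 15 falls whose calls were kept in all 8 fits without 1 array.

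The other large falls lost their calls in some of these fits. Nkx2-6, a homeobox gene of the embryonic heart and pharynx, read 615 and 309.8 on the KTL arrays, against 1586 and 3032 on the KNL arrays (-2.33 ± 0.51, adjusted p = 0.00943), and the call was lost without any single knockout array or either WNL array (adjusted p up to 0.0819). Srrm4, a neuronal splicing regulator of microexons, read 1608 and 1024 on the KTL arrays, against 5032 and 4588 on the KNL arrays (-1.90 ± 0.24, adjusted p = 0.00151). KNL was higher than every wild-type array for this gene, which read 2550.3 and 3166 in WTL and 1752 and 2210 in WNL, and the call was lost without KTL 2, KNL 1 or KNL 2 (adjusted p up to 0.0182). Qrfpr, a G protein-coupled receptor for a hypothalamic neuropeptide, read 1336 and 835 on the KTL arrays, against 3303 and 5497 on the KNL arrays (-2.01 ± 0.38, adjusted p = 0.00566), lost without any single knockout array or either WNL array (adjusted p up to 0.0533). Gjd4, a gap junction protein, had 3 probes that all fell, at -1.92, -1.49 and -1.17. Its brightest probe read 936 and 557 on the KTL arrays, against 2749 and 2723 on the KNL arrays, and its call was lost without any single knockout array (adjusted p up to 0.0367). Hrct1, Serpina3f, Zbed4, Oca2, Tas2r131, Pcdhga2, Gna15, Gmeb1 and 4931400O07Rik made up the rest, each lost without KTL 2 and likewise without KNL 2, and in part without further arrays up to all 8 for Gna15 (adjusted p up to 0.0677), with changes between -1.85 and -2.11. The interaction was called for 8 of the 15 falls.

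Probes of 1 gene did not always move together. Of 1759 genes with several probes, 58 had all probes called in the same direction, 564 had some called and others not, 13 had probes called in opposite directions and 1124 had none called. Nlk was among the mixed ones, since its other probes read 696 and 697 on the KTL arrays, against 959 and 823 on the KNL arrays, and 784 and 875 on the KTL arrays, against 1163 and 1106 on the KNL arrays, and were not called (-0.35 ± 0.13, adjusted p = 0.0494, and -0.45 ± 0.13, adjusted p = 0.0251). Pclo, a scaffold of the presynaptic active zone, rose at its bright probe (2.70 ± 0.32, adjusted p = 0.00116) but not at a dimmer one (-0.59 ± 0.14, adjusted p = 0.0116). Opposite calls were found for Dpysl2, a microtubule-binding protein of growing axons, and for Atf2, a transcription factor of the CREB family. The bright Dpysl2 probe read 11116 and 11338 on the KTL arrays, against 3130.1 and 3344 on the KNL arrays, whereas the dim ones read 125 and 120.1 on the KTL arrays, against 289 and 329 on the KNL arrays, and 180.3 and 158 on the KTL arrays, against 341 and 465 on the KNL arrays. Their changes were 1.80, -1.33 and -1.24. The Atf2 probes were of similar intensity in the wild type and read 845 and 885 on the KTL arrays, against 264 and 201 on the KNL arrays, for 1 probe, and 895 and 753 on the KTL arrays, against 1781 and 1734 on the KNL arrays, for the other (1.91 and -1.10). By contrast, both probes of Hsp90aa1 rose (3.24 and 2.29), as did both of Ube2n (2.74 and 2.23) and both of Rpl4 (1.08 and 1.44). The calls of the brightest probes were lost for Pclo without KTL 1, KTL 2 or KNL 2 (adjusted p up to 0.0156) and for Atf2 without KTL 2, KNL 1 or KNL 2 (adjusted p up to 0.016). A gene named above or below is therefore a statement on its brightest probe, unless another probe is described.

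Cells fold new proteins with chaperones, which in the cytosol are induced by heat shock factor and in the endoplasmic reticulum by the unfolded protein response. In both sets more genes rose than fell, as was the case over all genes (12.9% up and 7.11% down). Of 28 cytosolic chaperone genes, 9 rose and 0 fell, with a median change of 0.62, and of 22 endoplasmic reticulum genes 6 rose and 1 fell, with a median of 0.06. Hspa5, which encodes the lumenal chaperone BiP, read 578 and 581 on the KTL arrays, against 112 and 101 on the KNL arrays, with 649.5 and 593 in WTL and 620.3 and 786 in WNL (2.45 ± 0.14, adjusted p = 0.000199). The KNL arrays were at a level just over the floor, and the KTL arrays stood just below the wild-type arrays. Hsp90b1, the lumenal Hsp90, read 608 and 579.6 on the KTL arrays, against 191 and 154 on the KNL arrays (1.79 ± 0.14, adjusted p = 0.000351). Syvn1, the ubiquitin ligase of endoplasmic reticulum-associated degradation, read 861 and 926 on the KTL arrays, against 271 and 346 on the KNL arrays (1.55 ± 0.14, adjusted p = 0.000577). In the cytosol, Hspa8, the constitutive Hsp70, read 2402 and 3031 on the KTL arrays, against 790.0 and 691 on the KNL arrays (1.87 ± 0.21, adjusted p = 0.00101), a call lost without KTL 2 or KNL 2 (adjusted p up to 0.0156). Cct5, a subunit of the chaperonin that folds actin and tubulin, read 3842 and 3292 on the KTL arrays, against 1202 and 804 on the KNL arrays (1.85 ± 0.20, adjusted p = 0.000942), lost without KTL 1 or KTL 2 (adjusted p up to 0.0114). The kinase that slows translation under this stress, Eif2ak3, changed by 1.31 ± 0.23, adjusted p = 0.00421, lost without any single knockout array (adjusted p up to 0.0381). Ppp1r15a, which restores translation afterwards, fell (-1.15 ± 0.19, adjusted p = 0.00387), lost without any single knockout array (adjusted p up to 0.038). The count of risen cytosolic chaperones was 3, 3, 6 and 3, and that of risen endoplasmic reticulum genes 3, 3, 3 and 3, without KTL 1, KTL 2, KNL 1 and KNL 2.

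Promoters of some of the chaperone genes that rose are shown because response elements of such genes can lie in them. A window from 250 bases before to 50 bases after the start of transcription was read from RefSeq (build GRCm38.p6) for 6 of the 9 risen cytosolic genes and for 5 of the 6 risen endoplasmic reticulum genes. Both strands were searched for the endoplasmic reticulum stress response element, which is CCAAT and CCACG with 9 bases of any kind between them, for TTCNNGAA and GAANNTTC, the core of heat shock elements, and for TGACGTCA, the cAMP response element. The cores TTCNNGAA and GAANNTTC read the same on both strands and can overlap each other. Capitals mark the matches. Only windows with a match are printed, and not all of those. The windows of Hsf2, Tcp1, Ptges3 and Dnajb1 held no match, nor did a second window of Cct5.
Hspa5, chr2:34771840-34772139, plus strand: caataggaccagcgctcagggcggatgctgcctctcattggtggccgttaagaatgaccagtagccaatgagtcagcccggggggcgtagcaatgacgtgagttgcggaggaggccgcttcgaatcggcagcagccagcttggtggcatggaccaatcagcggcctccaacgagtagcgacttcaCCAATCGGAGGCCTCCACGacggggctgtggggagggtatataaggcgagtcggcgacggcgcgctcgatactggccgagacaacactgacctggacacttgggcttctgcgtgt
Hsp90b1, chr10:86705395-86705694, minus strand: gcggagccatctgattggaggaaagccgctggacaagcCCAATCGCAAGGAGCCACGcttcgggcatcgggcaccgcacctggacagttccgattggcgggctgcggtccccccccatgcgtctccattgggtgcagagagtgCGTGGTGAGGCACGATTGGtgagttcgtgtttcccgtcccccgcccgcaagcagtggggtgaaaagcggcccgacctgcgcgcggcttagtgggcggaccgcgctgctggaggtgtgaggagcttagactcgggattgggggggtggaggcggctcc
Syvn1, chr19:6046326-6046625, plus strand: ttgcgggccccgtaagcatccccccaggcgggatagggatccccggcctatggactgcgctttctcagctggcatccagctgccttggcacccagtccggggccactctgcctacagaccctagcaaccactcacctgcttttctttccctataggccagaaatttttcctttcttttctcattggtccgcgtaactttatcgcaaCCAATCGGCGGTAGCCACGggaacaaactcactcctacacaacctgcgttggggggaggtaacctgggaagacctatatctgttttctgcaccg
Cct5, chr15:31601797-31602096, minus strand: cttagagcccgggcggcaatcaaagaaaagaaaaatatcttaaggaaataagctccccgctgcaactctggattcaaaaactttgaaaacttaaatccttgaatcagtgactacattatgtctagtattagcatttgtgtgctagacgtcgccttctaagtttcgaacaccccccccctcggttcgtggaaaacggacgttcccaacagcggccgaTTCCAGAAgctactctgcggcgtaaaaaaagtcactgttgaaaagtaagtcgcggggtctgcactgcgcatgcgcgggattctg
The endoplasmic reticulum element was found in 4 of the 5 risen genes with a promoter, namely Hspa5, at base 186 of the window, Hsp90b1, at base 39 and on the other strand at base 144, Syvn1, at base 207, and Pdia6. Of the 16 members of this list that did not rise, 3 held it (Canx, Creld2 and Ero1b), as did 39 of all 32851 promoters (0.119%). The heat shock core TTCNNGAA was found in the printed Cct5 window at base 217 and in that of Eif2ak3, and GAANNTTC in that of Hspa1b, beside 8.52% and 7.86% of all promoters. A cAMP response element was in 1.79% of all promoters and in none of those searched here. A match describes the letters of the window and was not measured for binding.

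Proteins are marked for destruction by chains of ubiquitin and degraded by the proteasome, a barrel of proteases capped by a regulatory particle. Of 42 proteasome genes, 13 rose and 0 fell (median 0.42). The 4 largest rises were in the regulatory particle and its chaperones. Psmd14, its deubiquitinase, read 1414 and 1653 in KTL, against 257 and 144 in KNL (2.99 ± 0.26, adjusted p = 0.000479). Psmd6, a lid subunit, read 719 and 737 in KTL, against 102 and 112 in KNL (2.77 ± 0.16, adjusted p = 0.000196), and Psmc5, an ATPase of the base, read 1518 and 1629 in KTL, against 260.4 and 278 in KNL (2.55 ± 0.16, adjusted p = 0.000232). These groups did not overlap, which the choice of genes by the size of their rise made likely. The calls were kept in all 8 fits without 1 array, as was that of Psmd10 (2.28). The summed intensity of the list was 228790 and 226990 in KTL, against 203310 and 198080 in KNL, with 217870 and 215950 in WTL and 217000 and 216090 in WNL. Over the ubiquitin-conjugating enzymes, 7 of 26 rose and 2 fell. Ube2n, which builds ubiquitin chains used in signaling, read 2314 and 2495 in KTL, against 392 and 329 in KNL (2.74 ± 0.17, adjusted p = 0.000219). Ube2r2, which works with cullin ligases, fell (-1.42 ± 0.19, adjusted p = 0.00189), a call lost without any single knockout array (adjusted p up to 0.0224). Risen proteasome genes numbered 8, 7, 10 and 7 and risen conjugating enzymes 6, 4, 5 and 5 without KTL 1, KTL 2, KNL 1 and KNL 2.

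Membrane cargo is sorted on endosomes by sorting nexins and the retromer and is degraded in lysosomes. Of 30 sorting nexin and retromer genes, 8 rose and 0 fell (median 0.33). Vps26b, a core subunit of the retromer, read 836 and 919 on the KTL arrays, against 116 and 109.8 on the KNL arrays, with 561 and 409 in WTL and 721 and 731 in WNL (2.96 ± 0.16, adjusted p = 0.00018). Its KTL arrays were above all wild-type arrays and its KNL arrays next to the floor. Snx10, a nexin of endosome acidification, read 5386 and 6346 on the KTL arrays, against 1163 and 747 on the KNL arrays (2.65 ± 0.27, adjusted p = 0.000722), lost without KTL 2 (adjusted p up to 0.0115). Of 30 lysosomal genes, 6 rose and 1 fell, and the median was -0.10. Beside Npc2, the carrier of cholesterol out of lysosomes, they included the cathepsin Ctss, at 752 and 610.4 in KTL, against 172 and 129 in KNL (2.19 ± 0.17, adjusted p = 0.000382), and Glb1, the lysosomal beta-galactosidase, at 583 and 652 in KTL, against 179 and 165 in KNL (1.85 ± 0.16, adjusted p = 0.000456). Ctsa, a protective protein of that galactosidase, was at the floor in KTL, against 213 and 195 in KNL, and the call was lost without any single knockout array or either WNL array (adjusted p up to 0.0328). Risen sorting genes numbered 5, 3, 6 and 5 and risen lysosomal genes 5, 4, 6 and 4 without KTL 1, KTL 2, KNL 1 and KNL 2.

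Neurons draw most of their energy from the citric acid cycle and the respiratory chain, which feed the ATP synthase. In the citric acid cycle 9 of 23 rose and 0 fell (median 0.69), in complex I 7 of 31 rose and 0 fell (median 0.26), and in the ATP synthase 5 of 10 rose and 0 fell (median 1.32). In complexes III and IV 1 of 19 rose and 2 fell (median -0.03). Sdhd, an anchor subunit of succinate dehydrogenase, read 1873 and 1857 on the KTL arrays, against 381 and 246 on the KNL arrays (2.61 ± 0.21, adjusted p = 0.000408). Fh1, the fumarase, read 3447 and 3469.9 on the KTL arrays, against 868 and 657 on the KNL arrays (2.20 ± 0.19, adjusted p = 0.000451), and both calls were kept in every fit without 1 array. Ndufb10, of the membrane arm of complex I, read 848 and 826 on the KTL arrays, against 205 and 139.6 on the KNL arrays, with 1288 and 1104 in WTL and 1418 and 1609 in WNL (2.31 ± 0.20, adjusted p = 0.00046), so that KTL lay between KNL and the wild type. Atp5k, of the membrane part of the ATP synthase, read 1736 and 2739 on the KTL arrays, against 308 and 218 on the KNL arrays (3.07 ± 0.31, adjusted p = 0.000765), lost without KNL 2 (adjusted p up to 0.0127). Cox6b2, the testis form of a cytochrome oxidase subunit, fell (-1.25 ± 0.15, adjusted p = 0.00133), lost without KTL 1, KTL 2 or KNL 2 (adjusted p up to 0.0163). The risen citric acid cycle genes numbered 4, 3, 8 and 5 and those of complex I 4, 2, 6 and 4 without KTL 1, KTL 2, KNL 1 and KNL 2. In complexes III and IV Cox7a2l lost its rise without KTL 2, KNL 1 or KNL 2 (adjusted p up to 0.0168) and Uqcrq its fall without any single knockout array (adjusted p up to 0.0176). In the ATP synthase the count of rises was 3, 3, 3 and 2 without KTL 1, KTL 2, KNL 1 and KNL 2, and 3 without either WNL array.

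Among 15 glycolysis genes 3 rose, and among 16 genes of cholesterol synthesis 5 rose, with 0 falls in either. Slc2a1, the glucose transporter of the blood-brain barrier and astrocytes, read 783 and 902 on the KTL arrays, against 151 and 138 on the KNL arrays, with 431 and 432 in WTL and 611 and 522 in WNL (2.54 ± 0.13, adjusted p = 0.00018). The KTL arrays exceeded every wild-type array and the KNL arrays were below them. Pfkp, a phosphofructokinase, was at the floor on both KNL arrays, against 243 and 279 in KTL, at least 2.6-fold higher in KTL (adjusted p = 0.000541). Sqle, the squalene epoxidase that controls flux into sterols, read 632 and 739.8 on the KTL arrays, against 142 and 113 on the KNL arrays (2.43 ± 0.16, adjusted p = 0.000232), and Sc5d, a late desaturase of the pathway, changed by 1.35 ± 0.13, adjusted p = 0.000587. These 4 calls were kept in every fit without 1 array. The risen genes of cholesterol synthesis numbered 4, 3, 6 and 3 and those of glycolysis 2, 2, 4 and 2 without KTL 1, KTL 2, KNL 1 and KNL 2.

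Translation in mitochondria and in the cytosol uses separate ribosomes. Of 66 mitochondrial ribosomal protein genes, 11 rose and only Mrps6 fell (median 0.31). Mrpl51 of the large subunit read 1457 and 1369 on the KTL arrays, against 365 and 275 on the KNL arrays (2.16 ± 0.19, adjusted p = 0.000513). Of 23 cytosolic ribosomal protein genes, which share sequence with many pseudogenes, only Rpl4 (1.08 ± 0.17, adjusted p = 0.00284) and Rpl23 (1.04 ± 0.11, adjusted p = 0.000918) rose. Rpl4 lost its call without KTL 1, KTL 2 or KNL 2 (adjusted p up to 0.028) and Rpl23 without KTL 2 or KNL 2 (adjusted p up to 0.0129). Of 55 initiation and elongation factors 8 rose (14.5%) and 0 fell, beside 12.9% up and 7.11% down over all genes. Eif4e, the cap-binding protein whose activity limits translation, read 618 and 678 on the KTL arrays, against 112 and 123 on the KNL arrays, with 619 and 477 in WTL and 635 and 559 in WNL (2.46 ± 0.16, adjusted p = 0.000232). Its KNL arrays lay below all 6 other arrays. Eif2s3y, a Y-linked gamma subunit of eIF2, changed by 1.48 ± 0.14, adjusted p = 0.000594. Of 54 splicing factor genes 7 rose (13%, near the share over all genes) and 2 fell (3.7%). Among the rises was Hnrnpab, at 7495 and 8602 in KTL, against 2237 and 1996 in KNL (1.93 ± 0.14, adjusted p = 0.000342). Without KTL 1, KTL 2, KNL 1 and KNL 2, the rises numbered 5, 3, 7 and 5 for mitochondrial ribosomes, 4, 3, 5 and 5 for the factors of translation and 1, 1, 4 and 1 for splicing.

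Immediate early genes are transcribed within minutes of neuronal activity, without new protein synthesis. Of 35 measured, 8 rose and 5 fell, and the median change was 0.04. Dusp1, a phosphatase of MAP kinases, read 589 and 636 on the KTL arrays, against 139 and 126 on the KNL arrays, with 359 and 403 in WTL and 535 and 586 in WNL (2.21 ± 0.12, adjusted p = 0.00018). The KTL arrays lay above all wild-type arrays and the KNL arrays below them. Bdnf, the neurotrophin required for late-phase potentiation, read 444 and 383 on the KTL arrays, against 135 and 117 on the KNL arrays, with 331 and 367 in WTL and 479 and 439 in WNL (1.71 ± 0.13, adjusted p = 0.000378). Btg2, an antiproliferative factor, read 308 and 323 on the KTL arrays, against 100.4 and 100 on the KNL arrays, with 298 and 296 in WTL and 421 and 388 in WNL (1.66 ± 0.10, adjusted p = 0.000206). Ptgs2, the inducible cyclooxygenase, was at the floor on both KNL arrays, against 274 and 287 in KTL, at least 2.8-fold higher in KTL (adjusted p = 0.000557). The calls of these genes were kept in all 8 fits without 1 array. The other 4 rises were lost in some of them. Egr1, a zinc finger transcription factor, read 5720.4 and 7287 on the KTL arrays, against 3033 and 2209 on the KNL arrays, with 5202 and 4077 in WTL and 9101 and 9945 in WNL (1.32 ± 0.21, adjusted p = 0.00317), lost without KTL 1, KTL 2 or KNL 2 (adjusted p up to 0.0296). Egr4, of the same family, changed by 1.47 ± 0.17, adjusted p = 0.00104, lost without KTL 1 or KNL 2 (adjusted p up to 0.0106). Homer1, a postsynaptic scaffold, changed by 1.92 ± 0.32, adjusted p = 0.00378, lost without any single knockout array (adjusted p up to 0.0393). Dusp6, another MAP kinase phosphatase, changed by 1.501 ± 0.21, adjusted p = 0.00201, lost without any single knockout array (adjusted p up to 0.0243).

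Fos, Arc and Npas4, often used as markers of recent activity, were not called, and 22 of the 35 genes were not, against 8910 of all 11136. Fos, subunit of the AP-1 factor, read 528 and 551 on the KTL arrays, against 492 and 383 on the KNL arrays, with 542 and 445 in WTL and 1024 and 1105 in WNL (0.31 ± 0.16, adjusted p = 0.134). The WNL arrays lay above every other array, and the interaction was called (1.43, adjusted p = 0.00444). That call was lost without KTL 1, KTL 2, KNL 2, WTL 2 or either WNL array (adjusted p up to 0.0257). Arc, which removes AMPA receptors from synapses, read 1447 and 1771 on the KTL arrays, against 1401 and 1192 on the KNL arrays (0.31 ± 0.18, adjusted p = 0.184), and Npas4, a factor of inhibitory synapse formation, read 295 and 386 on the KTL arrays, against 347 and 254 on the KNL arrays (0.18 ± 0.24, adjusted p = 0.523). KTL and KNL overlapped for Npas4 and did not for Arc. Nr4a2, an orphan nuclear receptor, lay between 3031 and 3408 on all 8 arrays. The 5 falls were Fosl1 (-1.31), Klf4 (-1.18), Fosl2 (-1.15), Rheb (-1.07) and Jund (-1.06). Fosl1 lost its call without any single knockout array or either WTL array (adjusted p up to 0.0784), Klf4 without any single knockout array (adjusted p up to 0.0346), Fosl2 without any single knockout array (adjusted p up to 0.0417) and Rheb without KTL 2, KNL 1 or KNL 2 (adjusted p up to 0.0179). Jund read 887 and 802 on the KTL arrays, against 1596 and 1934 on the KNL arrays, with 885 and 1046 in WTL and 836 and 736 in WNL (-1.06 ± 0.15, adjusted p = 0.00216), so that KTL was at the wild-type level and KNL above it, and the call was lost without KTL 1, KTL 2 or KNL 2 (adjusted p up to 0.0232). Risen immediate early genes numbered 4, 5, 7 and 4 and fallen ones 1, 0, 1 and 0 without KTL 1, KTL 2, KNL 1 and KNL 2.

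**Figure D3:**
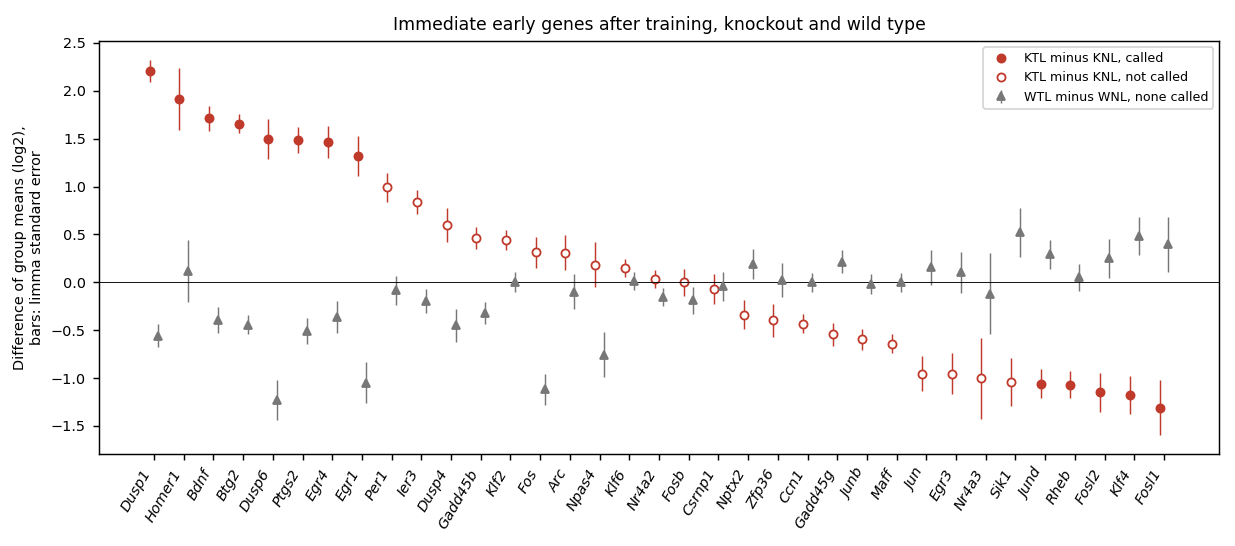
Difference of group means (log2) of 35 immediate early genes, KTL minus KNL as circles, filled where called, and WTL minus WNL as triangles, with bars for the limma standard error. In the knockout 8 were called up and 5 down, from Dusp1 at 2.21 to Fosl1 at -1.31, and in the wild type none was called.

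Foot shock releases glucocorticoids, which act through receptors that are dense in the hippocampus. Of 19 genes of these receptors and their targets, 6 rose and 2 fell, and of 17 circadian clock genes 2 rose (11.8%, beside 12.9% over all genes). Nfkbia, the inhibitor of NF-kappaB and a target of the glucocorticoid receptor, was at the floor on both KNL arrays, against 537 and 682 in KTL and 399 and 363 in WTL and 506 and 447 in WNL. It was at least 6.05-fold higher in KTL (adjusted p = 0.000194). Ddit4, an inhibitor of mTOR, read 3869 and 3642 on the KTL arrays, against 1189 and 958 on the KNL arrays (1.81 ± 0.14, adjusted p = 0.000378). Sgk1, a kinase regulating ion transport, read 3164 and 3733 on the KTL arrays, against 947 and 597 on the KNL arrays (2.19 ± 0.40, adjusted p = 0.00476), a call lost without any single knockout array or either WNL array (adjusted p up to 0.0486). The mineralocorticoid receptor Nr3c2 fell (-1.11 ± 0.22, adjusted p = 0.0067), lost without any single knockout array or either WTL array (adjusted p up to 0.0577). Clock changed by 1.02 ± 0.12, adjusted p = 0.0012, lost without KTL 1, KTL 2 or KNL 2 (adjusted p up to 0.015), and Rora, a nuclear receptor of the clock, by 1.61 ± 0.20, adjusted p = 0.00148, lost without KTL 1, KTL 2 or KNL 2 (adjusted p up to 0.0181). Risen members of the glucocorticoid list numbered 4, 4, 6 and 4 without KTL 1, KTL 2, KNL 1 and KNL 2.

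Among neuronal genes, those of growth cones and the axonal cytoskeleton had the largest share of rises. Of 23, 9 rose and 0 fell (median 0.54), and their summed intensity was 153340 and 153290 in KTL, against 104760 and 100690 in KNL, with 147200 and 134790 in WTL and 142370 and 154880 in WNL. Much of this gap came from Basp1, the brightest member. Without it the sums were 87865 and 89123 in KTL, against 75661 and 71102 in KNL, with 91014 and 81499 in WTL and 84624 and 89404 in WNL. Cntn1, an adhesion molecule of axons, read 2040.5 and 2426 on the KTL arrays, against 603 and 499 on the KNL arrays (2.02 ± 0.21, adjusted p = 0.000833), lost without KTL 2 or KNL 2 (adjusted p up to 0.0133). Nefm, the medium neurofilament, read 404 and 532 on the KTL arrays, against 114 and 101 on the KNL arrays (2.11 ± 0.36, adjusted p = 0.00403), lost without any single knockout array or either WNL array (adjusted p up to 0.0433). The count of risen members was 5, 4, 6 and 4 without KTL 1, KTL 2, KNL 1 and KNL 2, and 5 without either WNL array. Genes of synaptic vesicles and their fusion were mixed, as 7 of 34 rose and 2 fell (median 0.09). Slc17a6, a vesicular glutamate transporter, read 1525 and 1423 on the KTL arrays, against 535 and 516 on the KNL arrays (1.49 ± 0.11, adjusted p = 0.00032), and Synpr, a vesicle protein of mossy fibers, 871 and 722 on the KTL arrays, against 318 and 256 on the KNL arrays (1.48 ± 0.15, adjusted p = 0.000698). Vamp1, a SNARE of vesicles, fell, at 1211 and 1054 on the KTL arrays, against 2611 and 2467 on the KNL arrays (-1.17 ± 0.11, adjusted p = 0.000637). These 3 calls were kept in all 8 fits without 1 array, and the count of risen members was 2, 2, 6 and 3 without KTL 1, KTL 2, KNL 1 and KNL 2.

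At the postsynaptic side, 8 of 37 genes of glutamate receptors and their scaffold rose and 1 fell (median -0.09). Dlg1, a scaffold that delivers AMPA receptors, read 746 and 756 on the KTL arrays, against 220.5 and 183 on the KNL arrays, with 679.8 and 539.7 in WTL and 692 and 755 in WNL (1.90 ± 0.15, adjusted p = 0.000408). Dlgap2, a partner of such scaffolds, changed by 1.73 ± 0.13, adjusted p = 0.000327, and the metabotropic receptor Grm7 by 1.46 ± 0.12, adjusted p = 0.000444. The KTL arrays of Dlg1 lay at the upper end of the wild-type span and the KNL arrays far below it. Grin2b, an NMDA receptor subunit, was at the floor in KTL, against 195 and 209 in KNL, at least 2.02-fold lower in KTL (adjusted p = 0.000618), and the call was lost without KNL 2 (change under 2-fold). The count of risen members was 6, 5, 6 and 5 without KTL 1, KTL 2, KNL 1 and KNL 2. For inhibitory transmission, 3 of 14 genes rose. Gabrb1, a subunit of the GABA-A receptor, read 1425 and 1409 on the KTL arrays, against 307 and 313 on the KNL arrays, with 1159.7 and 865 in WTL and 1134 and 1234 in WNL (2.19 ± 0.15, adjusted p = 0.00029). Slc32a1, which loads GABA into vesicles, read 2433 and 2444 on the KTL arrays, against 646 and 490.5 on the KNL arrays (2.12 ± 0.16, adjusted p = 0.000332). Summed over the list, the intensities were 34382 and 34649 in KTL, against 25863 and 25141 in KNL. Of 18 neuropeptide and processing genes 3 rose and 1 fell, the rises being the granins Scg3, at 810.1 and 735 in KTL, against 181 and 151 in KNL (2.22 ± 0.15, adjusted p = 0.000253), and Chgb (1.68 ± 0.13, adjusted p = 0.000378), and the convertase Pcsk2 (1.52 ± 0.12, adjusted p = 0.000408). Adcyap1, the peptide PACAP, fell (-1.01 ± 0.18, adjusted p = 0.00446), lost without any single knockout array or either WNL array (adjusted p up to 0.0388).

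Because the deleted gene encodes a calcium channel, all 18 measured subunits of voltage-gated calcium channels are described. Cacnb4, an auxiliary beta subunit, rose, at 2216 and 2132 on the KTL arrays, against 837 and 592 on the KNL arrays (1.63 ± 0.19, adjusted p = 0.00122), a call lost without KTL 1 or KTL 2 (adjusted p up to 0.0148). Cacng3, a gamma subunit that escorts AMPA receptors, was at the floor on both KNL arrays, against 232 and 259 in KTL, at least 2.45-fold higher in KTL (adjusted p = 0.000581). Cacng6 fell, at 494 and 420.1 on the KTL arrays, against 908 and 1141 on the KNL arrays (-1.16 ± 0.17, adjusted p = 0.00239), lost without KTL 1, KTL 2 or KNL 2 (adjusted p up to 0.0247). The T-type subunit Cacna1g, a relative of Cav3.2, was not called, at 359.9 and 393 on the KTL arrays, against 220.5 and 243 on the KNL arrays, with 358 and 457 in WTL and 563 and 420.1 in WNL (0.70 ± 0.19, adjusted p = 0.0181). For Cacna1c, a pore subunit of L-type channels, the readings were 613 and 615 on the KTL arrays, against 352 and 364 on the KNL arrays (0.78 ± 0.11, adjusted p = 0.00209), under the 2-fold limit. At this brightest probe its interaction was called (1.13, adjusted p = 0.0029), as were those of Cacnb2 (-1.19, adjusted p = 0.00454) and Cacng4 (-1.17, adjusted p = 0.00333) in the opposite direction. Dimmer Cacna1c probes, at the floor in KTL and the wild type, were lower in KTL than in KNL, with bounds of -0.77 and -0.54. Neither their change nor their interaction was called. The interaction call was lost for Cacna1c without any single knockout array or either WNL array (adjusted p up to 0.0186), for Cacnb2 without any single knockout array, either WNL array or WTL 2 (adjusted p up to 0.024) and for Cacng4 without any single knockout array, WTL 2 or WNL 2 (adjusted p up to 0.0197). The other subunits not called were Cacna1a, Cacna1b, Cacna1d, Cacnb1, Cacnb3, Cacna2d1, Cacna2d2, Cacna2d3, Cacng7 and Cacng8 beside Cacna1h, with changes between -0.85 and 1.12. Potassium channels repolarize neurons and limit their firing. Of 56 subunits, with a median change of -0.32, 7 rose (12.5%) and 3 fell (5.36%), near the 12.9% and 7.11% over all genes. Kcnk2, a leak channel, read 1855 and 2256 on the KTL arrays, against 571 and 548 on the KNL arrays (1.87 ± 0.15, adjusted p = 0.000421), and Kcnn2, a calcium-activated channel of the SK family, 301 and 372 on the KTL arrays, against 100 and 102 on the KNL arrays (1.73 ± 0.17, adjusted p = 0.000704), lost without KNL 2 (adjusted p up to 0.0111). Kcnip4, which modulates A-type current, changed by 1.499 ± 0.17, adjusted p = 0.00102, lost without KTL 2 or KNL 2 (adjusted p up to 0.0144). Risen potassium channel subunits numbered 4, 3, 6 and 2 and fallen ones 1, 1, 1 and 1 without KTL 1, KTL 2, KNL 1 and KNL 2. Of the 3 falls, that of Kcne2 was kept in all 8 fits, and those of Kcnk18 and Kcnn4 were lost without any single knockout array.

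The kinases and phosphatases of long-term potentiation gave 4 rises (13.3%) and 2 falls (6.67%) in 30 genes (median -0.05). These shares were near the 12.9% and 7.11% over all genes. Ppp1cb, a catalytic subunit of protein phosphatase 1, read 4834 and 4831 on the KTL arrays, against 796 and 673 on the KNL arrays, with 5426 and 5814 in WTL and 6326 and 6471 in WNL (2.72 ± 0.12, adjusted p = 0.00018). Prkacb, which encodes a catalytic part of protein kinase A, read 6776 and 6604 on the KTL arrays, against 1845 and 1429 on the KNL arrays (2.04 ± 0.16, adjusted p = 0.000408). Both were kept in all 8 fits without 1 array, and their KNL arrays lay far below the other 6. In the MAP kinase cascade 10 of 46 genes rose and 6 fell. Crk, an adapter upstream of Ras-family GTPases, read 712 and 709.8 on the KTL arrays, against 171 and 161 on the KNL arrays (2.10 ± 0.09, adjusted p = 0.00018), and Mapk14, a stress-activated MAP kinase, 1037 and 1129.5 on the KTL arrays, against 315 and 278 on the KNL arrays (1.87 ± 0.14, adjusted p = 0.000321). The exchange factor Sos1 fell (-1.25 ± 0.21, adjusted p = 0.00373), lost without any single knockout array or WNL 2 (adjusted p up to 0.0369). The cascade's risen genes numbered 5, 5, 6 and 5 and its fallen genes 2, 0, 3 and 1 without KTL 1, KTL 2, KNL 1 and KNL 2. In the AKT and PI3 kinase list 5 of 18 rose and 1 fell. The rises included Tsc1, a brake on mTOR, at 2260.0 and 2039 in KTL, against 679.8 and 685 in KNL (1.65 ± 0.13, adjusted p = 0.000366), Akt2 (1.37 ± 0.12, adjusted p = 0.000519) and the catalytic subunit Pik3ca (1.46 ± 0.13, adjusted p = 0.000479), whereas Rheb, which Tsc1 and Tsc2 hold in check, fell, at 843 and 721 in KTL, against 1593 and 1683 in KNL (-1.07 ± 0.14, adjusted p = 0.00162), lost without KTL 2, KNL 1 or KNL 2 (adjusted p up to 0.0179). The risen genes numbered 3, 4, 4 and 3 in the AKT list and 3, 3, 3 and 2 in the potentiation list without KTL 1, KTL 2, KNL 1 and KNL 2. For neurotrophins, Bdnf rose and the receptor Ntrk2 was not called, at 8278 and 7654 in KTL, against 9183 and 9939 in KNL (-0.26 ± 0.15, adjusted p = 0.16).

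Among the cytokines and chemokines, which carry signals between immune cells, glia and neurons, falls outnumbered rises. Of 78 cytokine, chemokine and receptor genes, 6 rose and 14 fell (median -0.72). Il1rapl1, a synaptic adhesion molecule of the interleukin receptor family, rose (1.88 ± 0.13, adjusted p = 0.0003). Cxcl12, a chemokine that guides neural progenitors, was at the floor on both KNL arrays, against 365 and 322 in KTL, and lost its call without KNL 2 (adjusted p up to 0.0119). Il13, a cytokine of allergic inflammation, read 353 and 308 in KTL, against 947 and 797 in KNL (-1.40 ± 0.14, adjusted p = 0.00077), lost without KTL 2 (adjusted p up to 0.0112). Cxcl9, an interferon-induced chemokine, read 259 and 209.7 in KTL, against 575 and 678 in KNL (-1.42 ± 0.20, adjusted p = 0.00197), lost without any single knockout array (adjusted p up to 0.0235). The fallen genes numbered 5, 2, 7 and 3 without KTL 1, KTL 2, KNL 1 and KNL 2. Of 19 Wnt ligands and receptors, 16 were lower in KTL (median -0.83), beside 5974 of all 11136 genes, but only 1 rise and 1 fall were called. The median intensity of the list was 355, and the bins of probes with mean intensities of 281 and 394 had median changes of -0.19 and -0.10. Wnt9a rose, at 629 and 658 in KTL, against 199 and 192 in KNL (1.72 ± 0.10, adjusted p = 0.000198), and Wnt7b fell, at 345 and 305 in KTL, against 606 and 760.0 in KNL (-1.06 ± 0.19, adjusted p = 0.00493), lost without any single knockout array or either WNL array (adjusted p up to 0.043).

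Markers of the cell types of the hippocampus were counted to describe what the tissue held. Of 22 markers of pyramidal and granule neurons, 7 rose and 0 fell (median 0.57), and their summed intensity was 87795 and 88074 in KTL, against 87611 and 89026 in KNL. The sums thus overlapped, but without C1ql2, the brightest of these markers, they were 68375 and 70558 in KTL, against 60529 and 58321 in KNL. Neurod6, a factor of pyramidal neurons, read 1789 and 2726 on the KTL arrays, against 401 and 206 on the KNL arrays (2.94 ± 0.34, adjusted p = 0.0011), lost without KTL 2 (adjusted p up to 0.0136). Prox1, which sets granule cell identity, read 377 and 349 on the KTL arrays, against 117 and 100 on the KNL arrays (1.74 ± 0.14, adjusted p = 0.000387). Interneuron markers gave 1 rise and 1 fall in 17, astrocyte markers 3 rises in 27 (11.1%) and oligodendrocyte markers 3 rises in 26 (11.5%). These last shares, and the 12.5% of microglia markers below, were near the 12.9% over all genes. For oligodendrocytes the sum was 122180 and 122000 in KTL, against 95573 and 88860 in KNL, with 118840 and 118350 in WTL and 123570 and 117900 in WNL, lowest on the KNL arrays. Much of this gap came from Mbp, the brightest of these markers. Without it the sums were 84939 and 84197 in KTL, against 72872 and 69788 in KNL, with 83100 and 82142 in WTL and 83532 and 80662 in WNL. Microglia markers gave 3 rises in 24, with sums of 22017 and 22146 in KTL, against 23851 and 22494 in KNL, and P2ry12, the purinergic receptor of resting microglia, was at the floor on both KNL arrays, against 242 and 397 in KTL and 578 and 579 in WTL and 552 and 564 in WNL. Its call was lost without KNL 1 or KNL 2 (adjusted p up to 0.0218). Endothelial and mural cells gave 4 rises and 1 fall in 21 markers, with a median of -0.55 and sums of 14975 and 14667 in KTL, against 21350 and 22226 in KNL. The fall was that of Acta2, the smooth muscle actin of mural cells, at 1563 and 1589 in KTL, against 2997 and 3338 in KNL, lost without KTL 1, KTL 2 or KNL 2 (adjusted p up to 0.0116). Flt1, a VEGF receptor of endothelium, and Rgs5, a marker of pericytes, were at the floor on both KNL arrays, against 390.2 and 412 and 338 and 359.7 in KTL (at least 4.01-fold and at least 3.49-fold higher in KTL, adjusted p = 0.000384 and 0.000413). Markers of thalamus and habenula, which border the hippocampus, gave 1 rise and 3 falls in 12. Risen astrocyte markers numbered 2, 1, 4 and 2, risen microglia markers 3, 2, 3 and 1 and fallen markers of thalamus and habenula 1, 0, 2 and 0 without KTL 1, KTL 2, KNL 1 and KNL 2. The part of these shifts in the other changes was not tested.

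**Figure D4:**
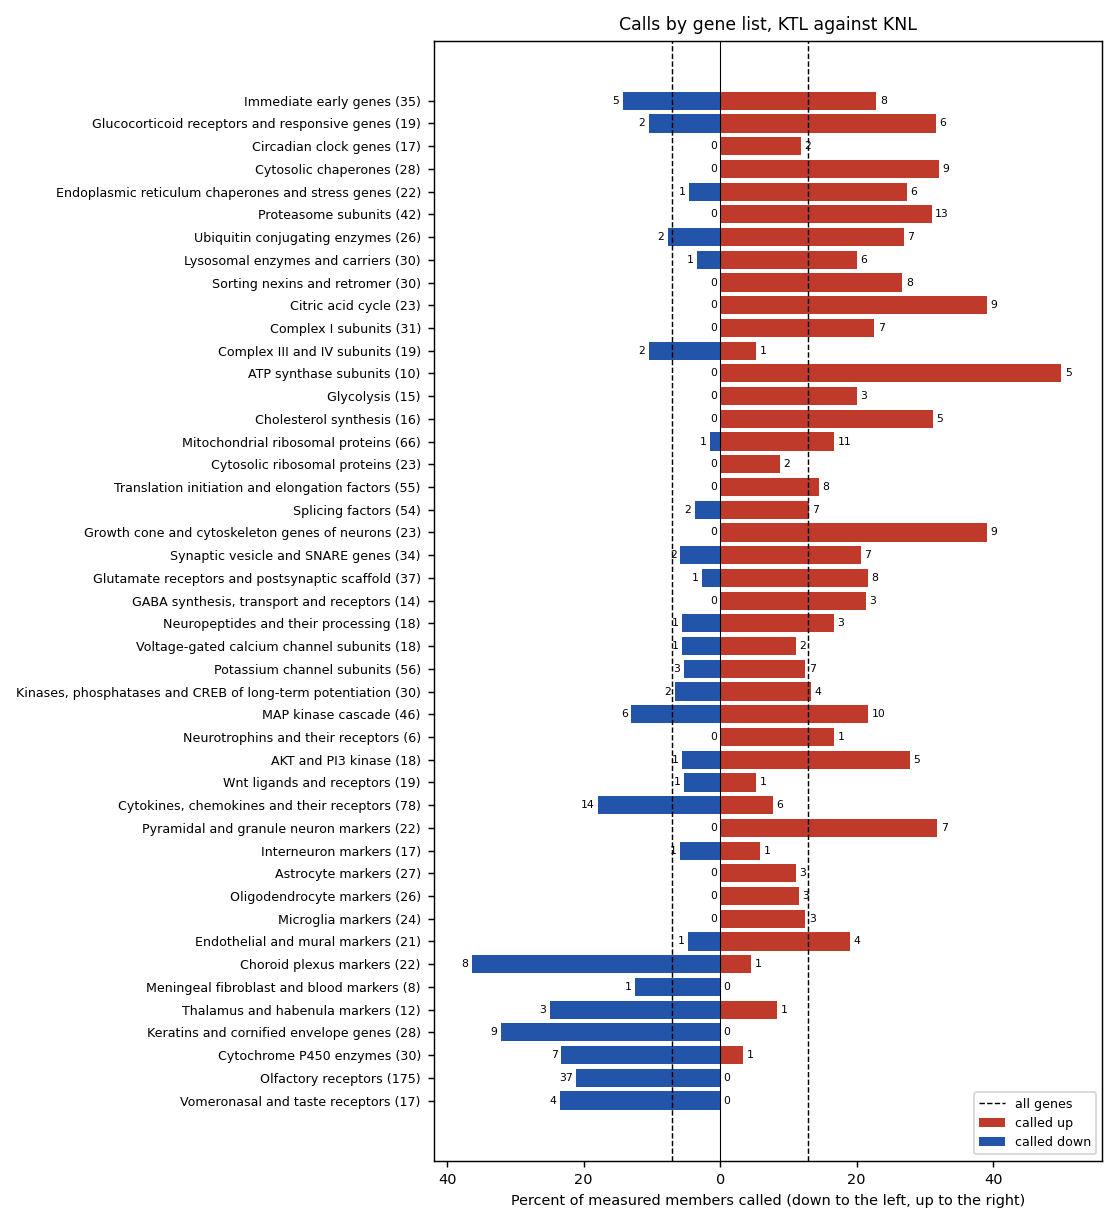
Percent of the measured members of 45 gene lists that were called down (left of 0) and up (right of 0) in KTL against KNL, the number of members in brackets and the dashed lines at the shares over all genes, 12.9% up and 7.11% down. ATP synthase, citric acid cycle and growth cone genes reach furthest to the right, and choroid plexus markers and keratins furthest to the left.

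Choroid plexus, the secretory epithelium of the ventricles, borders the hippocampus and can be taken along in dissection. Of 22 of its markers 8 fell and 1 rose (median -0.68), and their summed intensity was 31564 and 31973 in KTL, against 37072 and 36360 in KNL, with 59818 and 57199 in WTL and 72189 and 70389 in WNL. The sum was thus lowest in KTL and highest in the wild type, an order that rested on Ttr. Over the other 21 markers it was 14122 and 13535 in KTL, against 23335 and 26267 in KNL, with 21563 and 21959 in WTL and 22372 and 21324 in WNL, so that KTL stayed lowest and KNL was level with the wild type or above it. Folr1, the folate receptor of the epithelium, read 113 and 110.3 on the KTL arrays, against 324 and 293 on the KNL arrays, with 344 and 292 in WTL and 384 and 389.9 in WNL (-1.46 ± 0.12, adjusted p = 0.000413). Its KTL arrays were next to the floor, and its KNL arrays overlapped the wild-type arrays. Trpm3, a cation channel, read 448 and 524 on the KTL arrays, against 1109.5 and 1112 on the KNL arrays (-1.20 ± 0.18, adjusted p = 0.00245), lost without any single knockout array (adjusted p up to 0.0253), and Clic6, a chloride channel, 609 and 578 on the KTL arrays, against 1292 and 1182 on the KNL arrays (-1.06 ± 0.16, adjusted p = 0.00266), lost without any single knockout array (adjusted p up to 0.0266). F5, the coagulation factor V, and Msx1, a homeobox factor, changed by -1.14 ± 0.12, adjusted p = 0.00087, and by -1.11 ± 0.13, adjusted p = 0.00111. F5 lost its call without KTL 2 (adjusted p up to 0.0113) and Msx1 without KTL 1 or KNL 2 (adjusted p up to 0.013). For Slc4a5, a bicarbonate transporter, both KTL arrays were at the floor, against 222 and 241 in KNL, and the call was lost without any single knockout array (adjusted p up to 0.0279). Igfbp2 and Kcne2 were the other falls (-1.28 and -1.47), both kept in all 8 fits without 1 array.

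The most abundant product of the epithelium did not follow. Ttr, transthyretin, read 17442 and 18438 on the KTL arrays, against 13737 and 10093 on the KNL arrays, with 38255 and 35240.3 in WTL and 49816 and 49065 in WNL (0.61 ± 0.16, adjusted p = 0.0172). It was not called, and both knockout groups lay below all wild-type arrays. Enpp2, which makes lysophosphatidic acid, rose, at 248 and 247 on the KTL arrays, against 100.4 and 109 on the KNL arrays, with 516 and 449 in WTL and 434 and 486 in WNL (1.24 ± 0.12, adjusted p = 0.000638). Otx2, the transcription factor of the epithelium, read 148 and 129.7 on the KTL arrays, against 249 and 199 on the KNL arrays (-0.68 ± 0.14, adjusted p = 0.00702). Kl, the anti-aging factor klotho, read 904 and 813 on the KTL arrays, against 1396 and 1286 on the KNL arrays (-0.64 ± 0.14, adjusted p = 0.00961), and both missed the 2-fold limit. Of the remaining markers Abca4, Ace, Calml4, Cldn1, Cldn2, Col8a1, Col9a3, Igf2, Lbp and Slc13a4 were not called at their brightest probes. Dimmer probes of Cldn2 and Abca4 were called down. That of Cldn2 was at the floor in KTL, against 236 and 293 in KNL. That of Abca4 read 347 and 264 in KTL, against 660 and 894 in KNL (-1.35 ± 0.21, adjusted p = 0.0029). The fallen markers numbered 4, 4, 5 and 4 without KTL 1, KTL 2, KNL 1 and KNL 2. How far the choroid plexus content of a pool bears on the other changes was not tested.

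**Figure D5:**
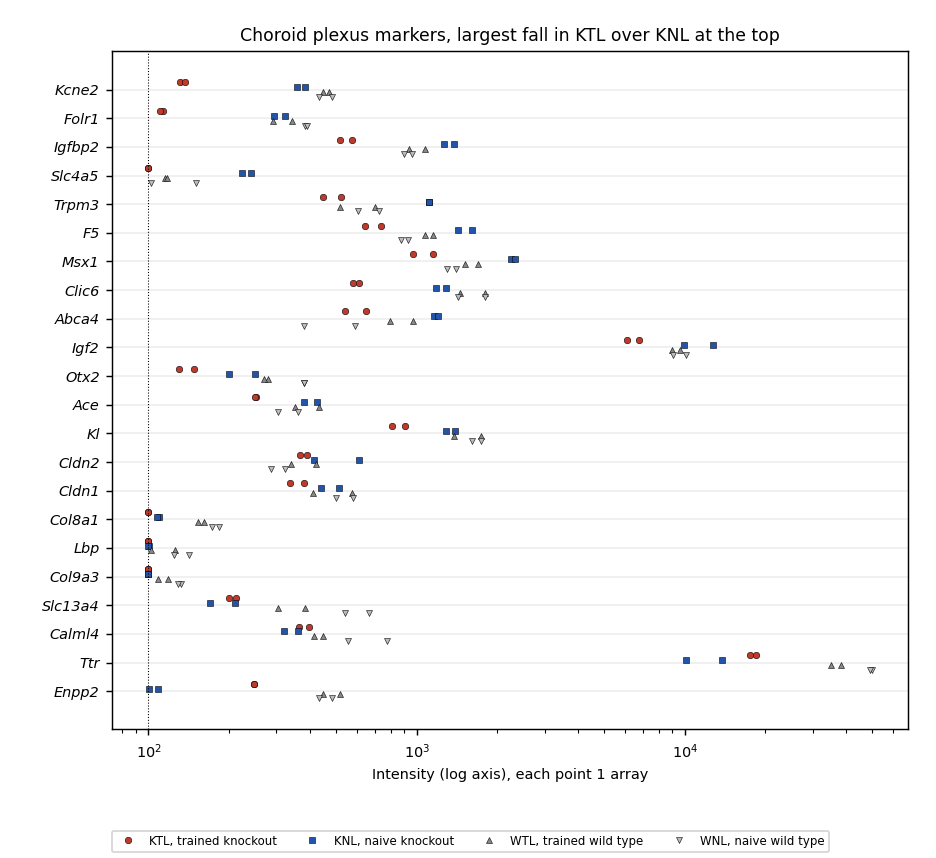
Intensity (log axis) of 22 choroid plexus markers, largest fall in KTL over KNL at the top, each point 1 array of KTL, KNL, WTL or WNL and the dotted line the floor of 100. For the 8 called falls the KTL points lie left of the KNL points, whereas Ttr and Enpp2 have their KNL points furthest left.

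Lists of genes that belong to other tissues held more falls than rises, although most of their members were not called. Of 175 olfactory receptor genes 0 rose and 37 fell (median -0.97), and 172 were lower in KTL than in KNL, beside 5974 of all 11136 genes. Their summed intensity was 50989 and 46901 in KTL, against 86424 and 113900 in KNL, with 55162 and 67401 in WTL and 55364 and 52949 in WNL. Olfr736 read 145 and 143 on the KTL arrays, against 396 and 478 on the KNL arrays (-1.59 ± 0.29, adjusted p = 0.00515), lost without any single knockout array (adjusted p up to 0.0517), and Olfr1009 read 1011 and 688 on the KTL arrays, against 2427 and 2291 on the KNL arrays (-1.499 ± 0.20, adjusted p = 0.00165), lost without KTL 2, KNL 1 or KNL 2 (adjusted p up to 0.0188). The second KNL array was the highest of the 8 in the sum, and the KTL arrays were lowest. Vomeronasal and taste receptors gave 4 falls in 17, keratins and cornified envelope genes 9 in 28 and cytochrome P450 enzymes 7 in 30. Among them Cyp20a1 was the only rise, and it was lost without KTL 1, KTL 2, KNL 2 or either WNL array (adjusted p up to 0.0315). The median changes were -1.003, -0.88 and -0.85 in that order. Krt88, a hair keratin, read 304 and 264 on the KTL arrays, against 714 and 752 on the KNL arrays (-1.37 ± 0.13, adjusted p = 0.000638) and kept its call in all 8 fits without 1 array. Cyp2r1, an enzyme of vitamin D activation, read 3343 and 2537 on the KTL arrays, against 7278 and 8458 on the KNL arrays, with 3809 and 4491 in WTL and 3385 and 2402 in WNL (-1.43 ± 0.22, adjusted p = 0.00267), lost without any single knockout array (adjusted p up to 0.0305). Fallen olfactory receptors numbered 5, 1, 28 and 1, fallen vomeronasal and taste receptors 1, 1, 4 and 2, fallen keratins 2, 2, 5 and 2 and fallen cytochrome P450 enzymes 1, 0, 4 and 0 without KTL 1, KTL 2, KNL 1 and KNL 2. Receptors of this family share sequence, so that a probe may read several.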

How the data were processed

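RNA of pooled left hippocampi was amplified to aRNA, labeled with Cy5 and hybridized to Mouse Whole Genome OneArray slides, 1 color per array. The intensities deposited by the authors were averaged over technical replicates, not further described, and quantile normalized, per the study's methods, which also state a floor of 100; values down to 7.228 were nevertheless present, so the floor and the normalization were applied again before taking log2. The table listed 29922 probes, of which 16588 had values and 13183 of those a gene symbol, while 13334 had none on any array. Of these symbols 1794 were updated through RefSeq and 23 were not found there. Between 6.64% and 6.86% of probes per array were at the floor, and the small number of arrays limits the precision.

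Groups came from the sample labels. A linear model with 1 coefficient per group was fitted over 8 arrays with limma 3.58.1 in R 4.3.3, with 4 residual and 2.45 prior degrees of freedom, after the script had been tested on simulated data. The study's methods name SAM, run here as an alternative. With 2 arrays against 2, an exact permutation test cannot give a two-sided p below 0.333.

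The comparison, the 45 gene lists (1354 measured genes) and the tests were chosen with earlier results of these data known. Genes were named by rule: Cacna1h, the 15 largest rises and falls, the 10 largest interaction terms, in each list the called members with the 4 largest rises and 3 largest falls, or the brightest pair where fewer were called, and any member of the immediate early, calcium channel and choroid plexus lists. Lemd2, Ecrg4, Dpysl2, Atf2, Uqcrq, Cox7a2l and the genes named for a promoter match alone were chosen after their values were seen. Alternatives were other floors, normalizations, filters, tests and thresholds, a replicate block, and fits without each array in turn. Promoter windows came from RefSeq, build GRCm38.p6. Arrays of right hippocampi were not analysed here.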

Additional observations from a re-analysis of the deposited data

Results flagged for a closer look

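A training effect that differed between knockout and wild type was found by the interaction term of limma at 2207 probes upward (13.3%) and 1403 downward (8.46%). It was called for 184 of the 263 genes named, beside 13.7% upward and 8.24% downward over all genes. Of the 263, 210 were called in KTL vs KNL, mostly the reason for naming them, and that contrast shares its arrays with the interaction. The count of 184 thus follows largely from the choice of genes. For each of the 10 genes with the largest interaction, KTL was above KNL, whereas WTL was on average below WNL. Choosing genes by the size of this term favors such opposite directions, so this describes the choice and is no separate result. The interaction was 4.58 for Nlk (adjusted p = 0.00465), 3.94 for Pja1 (adjusted p = 0.000722), 3.89 for Acsl4 (adjusted p = 0.00118), 3.82 for Snx1 (adjusted p = 0.0007) and 3.67 for Pccb (adjusted p = 0.0011), whose array values are given above.

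Capn7, a calpain-family protease, read 613.5 and 1077 on the KTL arrays, against 100 and 100 on the KNL arrays, with 796.7 and 487.8 in WTL and 1093 and 1032 in WNL, and its interaction was 3.79 (adjusted p = 0.00195). The call was lost without KTL 2, KNL 1, KNL 2 or WNL 2, with adjusted p up to 0.0165. Ctbp1, a transcriptional corepressor, read 636.1 and 899.2 on the KTL arrays, against 122.6 and 126.1 on the KNL arrays, with 509.1 and 562.5 in WTL and 1409 and 1002 in WNL. Its interaction of 3.76 (adjusted p = 0.000963) was kept in all 8 fits without 1 array, as were those of Pja1 and Snx1. Psd3, an exchange factor of Arf6, read 852.9 and 864.9 on the KTL arrays, against 141.4 and 131.2 on the KNL arrays, with 791.3 and 380.9 in WTL and 979.1 and 1224 in WNL, and its interaction was 3.65 (adjusted p = 0.00223). It was lost without any single knockout array or WNL 2, with adjusted p up to 0.0185. The interaction was 3.75 for Atp5k (adjusted p = 0.002) and 3.68 for Ube2e2 (adjusted p = 0.00103). Atp5k lost this call without KTL 2, KNL 2 or WNL 2, and Ube2e2 without KTL 2, with adjusted p up to 0.0155 and 0.0109.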

How the results depend on the processing

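No probe called in KTL vs KNL had the opposite call under any alternative, and no named gene with a call in either fit changed sign. Named genes without a call were not counted here. The change of Npas4, which was not called, ran from -0.04 to 0.41 in the fits without 1 array. Raising the floor to 200 left 1205 rises and 401 falls (1606 in all) and 975, 368 and 1343 for the interaction. Testing against a 2-fold change with treat left 247 and 4 (251), and 152 and 1 (153) for the interaction. An adjusted p under 0.05 gave 2655 downward interaction calls and 5510 in all. With the 4 knockout arrays alone 803 probes fell, and with SAM 1918. Cyclic loess made 69.9% of the calls rises, against 62.7%. Apart from the replicate block and the left-out arrays, given next, the other alternatives kept the counts within 1.5 times. With 1 array left out, KTL vs KNL gave 841 to 2184 rises, 89 to 1195 falls and 930 to 3379 calls, and the interaction 234 to 2241, 7 to 1272 and 241 to 3513. The lowest were those without KTL 2. Only 210 of the 263 named genes held a KTL vs KNL call that could be lost. Of the 263 named genes 112 lost their call without KTL 2, 107 without KNL 2, 89 without KTL 1, 67 without KNL 1 and 78 at a floor of 200. The replicate numbers share no source that the labels give, and the differences between replicates correlated at -0.249 to 0.432 over the 6 pairs of groups, at -0.244 for KTL with KNL and at 0.432 for KNL with WTL, so they were not taken to pair the samples. With the number as a block 1963 probes rose and 1022 fell, and the interaction gave 1678 upward and 769 downward calls. With the KTL numbers crossed, a pairing added after the data were seen, the counts were 2105 and 1306. The cause of these differences was not tested. Probes near the floor have only a bound, and 2 arrays a group limit every p.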

Other observations

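The genes around Mrps6 on chromosome 16 were looked up in RefSeq after its values were seen, to give the neighbors of the largest fall. Kcne2, the next gene, a potassium channel subunit of the choroid plexus, fell as well, at 130.8 and 136.5 on the KTL arrays, against 384.1 and 358.3 on the KNL arrays (-1.47 ± 0.11, adjusted p = 0.000323). Clic6, 7 genes further along, fell by 1.06 on the log2 scale. Between them, Rcan1, a regulator of calcineurin, read 3029 and 2749 on the KTL arrays, against 2965 and 2879 on the KNL arrays (-0.02 ± 0.11, adjusted p = 0.898). Of the measured genes within 10 places on either side, these were the only falls called, and rises were called for a pair. Son, a splicing cofactor 7 genes before Mrps6, rose, at 877 and 1495 on the KTL arrays, against 189.4 and 191.8 on the KNL arrays (2.59 ± 0.25, adjusted p = 0.000653). Cbr1, a carbonyl reductase 10 genes after it, rose too, at 3903 and 4366 on the KTL arrays, against 1056 and 1046 on the KNL arrays (1.97 ± 0.11, adjusted p = 0.000193). Whether these neighbors change together was not tested.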
